A study of Mus musculus with 9 samples.

Results

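The set named immediate early transcription factors was described here in mouse liver as 10 genes: Egr1, Jun, Junb, Jund, Fos, Fosb, Myc, Klf6, Ier2 and Ier3. Of these, Ier3 encodes a regulator of cell death and not a transcription factor. The genes were chosen by name, with earlier results of these data known. They are 10 of the 25781 genes in the deposited table, and each symbol had 1 entry. Liver RNA of Swiss mice aged 10 to 12 weeks was sequenced in 3 groups of 3 libraries. The selenite + CYP group was given β-CYP at 40 mg/kg together with Na2SeO3 (sodium selenite) at 50 µg/kg. The CYP group was given the same dose of β-CYP alone. The control group is labelled only as control, and no vehicle is named. What β-CYP stands for is not spelled out in the labels, which also give no route, time after dosing, sex or genotype. Whether each library is a separate animal is not labelled either, and the p-values therefore measure the spread among libraries, which could be technical.

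Immediate early genes are transcribed within minutes of a growth factor, cytokine or stress signal, because the factors that switch them on are already present in the cell and need only be phosphorylated. MAP kinase cascades act on serum response factor and its cofactors, and the early products, EGR1, the JUN and FOS subunits of AP-1, MYC and KLF6, then act on later genes. Their mRNAs are short-lived, and in liver they are known for their brief rise after partial hepatectomy, acute injury and acute phase signals.

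Regulatory sequence was taken from the 250 bases before the RefSeq start of each gene (build GRCm38.p6), and 7 of the 10 genes matched an entry: Jun, Junb, Jund, Fos, Fosb, Klf6 and Ier3. Those of Jun and Klf6 are printed because both genes were higher in selenite + CYP livers than in control, with means no lower than in CYP livers. Fos is printed beside them as the classical serum-induced gene. Each reads 5′ to 3′ towards the start, with motif matches in capitals. The Jun window is chr4:95052223-95052472 on the minus strand, the Klf6 window chr13:5861239-5861488 on the plus strand, and the Fos window chr12:85473640-85473889 on the plus strand.
Jun: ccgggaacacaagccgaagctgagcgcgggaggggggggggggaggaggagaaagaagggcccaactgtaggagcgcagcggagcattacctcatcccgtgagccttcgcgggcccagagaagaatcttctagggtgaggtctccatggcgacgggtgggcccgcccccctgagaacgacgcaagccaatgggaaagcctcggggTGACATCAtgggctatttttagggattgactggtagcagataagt
Klf6: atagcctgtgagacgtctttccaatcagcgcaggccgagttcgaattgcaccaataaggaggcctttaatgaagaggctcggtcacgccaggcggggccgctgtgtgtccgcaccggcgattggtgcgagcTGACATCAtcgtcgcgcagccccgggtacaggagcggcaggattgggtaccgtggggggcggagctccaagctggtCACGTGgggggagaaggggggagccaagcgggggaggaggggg
Fos: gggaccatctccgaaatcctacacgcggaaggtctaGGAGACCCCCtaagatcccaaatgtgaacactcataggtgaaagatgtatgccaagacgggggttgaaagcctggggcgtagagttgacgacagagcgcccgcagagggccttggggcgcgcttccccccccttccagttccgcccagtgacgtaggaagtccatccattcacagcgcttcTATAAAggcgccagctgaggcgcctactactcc

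The capitals in Jun and the first capitals in Klf6 are the same letters, tgacatca, a match to the CRE-like element TGACNTCA to which JUN and ATF proteins bind. It ends 38 bases before the Jun start and 112 bases before the Klf6 start. The other capitals in Klf6 are an E-box, CACGTG, the element of the MYC and MAX pair, 43 to 38 bases before the start. In Fos the capitals are an NF-kB element and a TATA box, TATAAA, 33 to 28 bases before the start. Both strands were searched in all 7 windows, and no matches of different motifs overlapped. TGACNTCA was held by 2 of the 7 windows (Jun and Klf6) and by 7.49% of 32851 RefSeq windows of the same length. The AP-1 element TGANTCA was held by 0 of the 7 and by 6.75% of all windows. The EGR element GCGNGGGCG was held by 1 (Fosb) and by 4.70%, and CACGTG by 1 (Klf6) and by 6.02%. The NF-kB element was held by 3 (Fos, Fosb and Ier3) and by 7.25%, TATAAA by 1 (Fos) and by 12.4%, and the CArG box of serum response factor by 0 and by 1.47%. The Junb and Jund windows held none of the 7 motifs. A match describes the letters of the window and is not a shown site. An absent match, such as that of the CArG box, holds only for these 250 bases. Elements further from the start were not searched, and Egr1, Myc and Ier2 had no window.

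Values below are scaled counts, reads divided by the authors' factor for each library, and changes are log2(scaled count + 1) differences ± the standard error that limma's fit to all 9 libraries gave. A gene is called when its adjusted p, over the 20145 genes tested, is under 0.05. Libraries held 28630269 to 36029560 reads. Control replicate 2 stood apart in AY036118, an rRNA-like transcript with 1805976 reads there, against 42232 to 43988 in the other controls. In bulk tissue, fewer cells of a type and less RNA per cell cannot be told apart. All 8 hepatocyte markers were detected in every group, with summed scaled counts of 2587213 to 2616161 in selenite + CYP, 3250268 to 3356706 in CYP and 2760296 to 2896021 in control livers. Neutrophil markers (8 genes) summed to 601 to 772 in selenite + CYP, 496 to 577 in CYP and 146 to 153 in control livers, where Ly6g was at 0. The 8 macrophage markers summed to 13917 to 14075 in selenite + CYP, 11519 to 11596 in CYP and 11659 to 11961 in control livers. Pancreatic acinar markers (10 genes) summed to 35953 to 37587 in selenite + CYP, against 1156 to 1234 in CYP livers, where 5 were at 0, and 983 to 1157 in control livers, where 6 were at 0. The part of these cell markers in the changes below was not tested.

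The 3 comparisons share libraries, so their counts are not independent. In CYP livers 5 of the 10 genes were called against control, 4 higher (Egr1, Junb, Jun, Jund) and 1 lower (Myc), while 16.3% of all genes tested were called (7.72% higher and 8.58% lower). In selenite + CYP livers 3 were called against CYP, all lower (Egr1, Junb, Ier2), against 23.9% of all genes (11.6% higher and 12.3% lower). Against control, 4 of the 10 were higher in selenite + CYP livers (Jun, Jund, Klf6, Junb) and 1 was lower (Myc), against 28.9% of all genes (14.4% higher and 14.5% lower). The median log2 change of the 10 was 0.53 for CYP over control, -0.07 for selenite + CYP over CYP and 0.04 for selenite + CYP over control. The medians of all genes tested were -0.0013, 0.017 and 0.027 for the same comparisons. All libraries of CYP lay above all of control for 6 of the 10 genes and below for 1, as they did for 15.4% and 16.2% of all genes tested (31.6% in all). All of selenite + CYP lay above CYP for 1 and below for 4 (19.3% and 18.5% of all genes, 37.8% in all). All of selenite + CYP lay above control for 4 and below for 2 (21.4% and 20.4% of all genes, 41.8% in all).

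**Figure D1:**
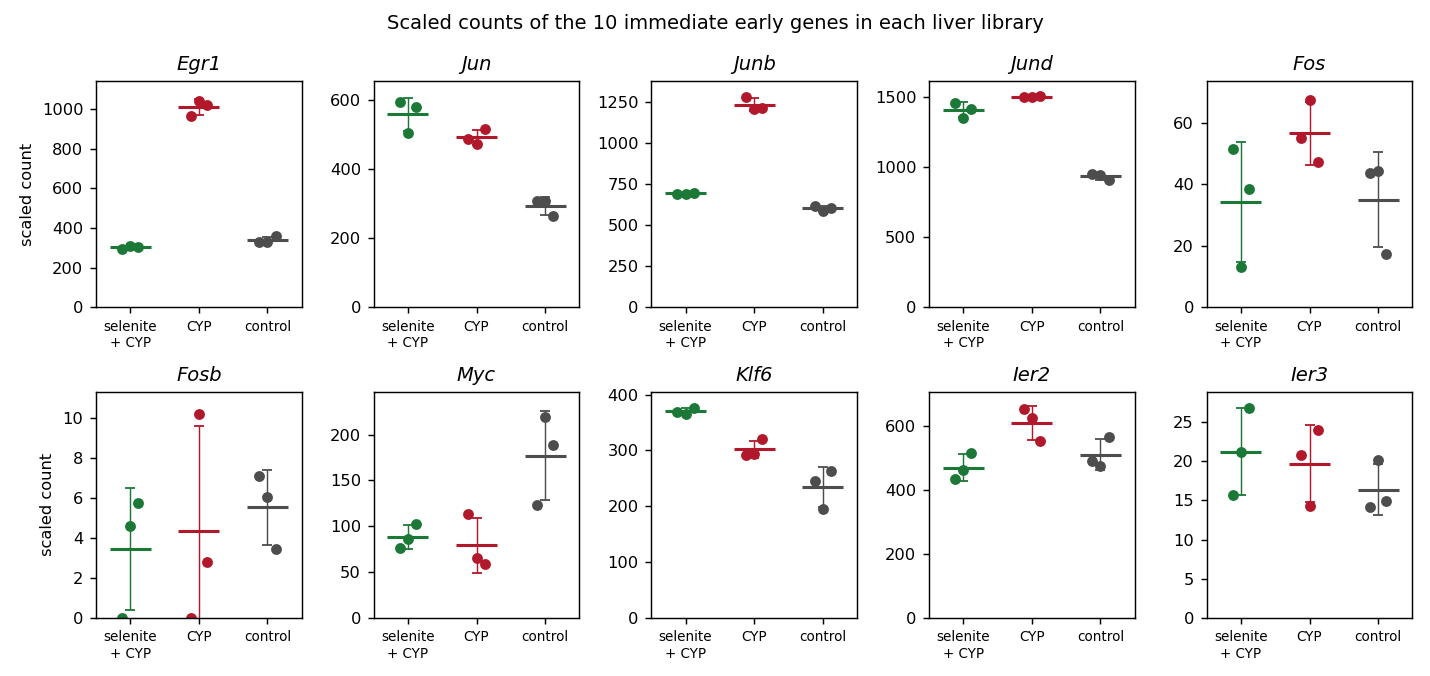
Scaled counts (vertical axis, from 0, a separate scale for each gene) of the 10 genes in each library of the selenite + CYP, CYP and control groups. Points are libraries, the horizontal line is the group mean and the bar is ± SD (n = 3). Egr1 lies between 966 and 1045 in CYP livers and between 295 and 359 in the other 6 libraries, whereas Jun and Jund are high in both treated groups.

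Egr1 (ENSMUSG00000038418) encodes a zinc finger factor that binds GC-rich promoters. It had 294.6, 309.0 and 305.7 scaled counts in the selenite + CYP libraries, 966.3, 1045 and 1022 in the CYP libraries, and 330.8, 329.2 and 358.9 in the control libraries. Every CYP library was above every other library, and every selenite + CYP library was slightly below every control library. The CYP mean was 1011 ± 40.3 (SD, n = 3), 2.98 times the control mean of 340 ± 16.7, a log2 change of 1.57 ± 0.066 (95% interval 1.42 to 1.72, limma adjusted p = 1.9e-07). In selenite + CYP livers the mean was 303 ± 7.53, and Egr1 fell by 1.73 ± 0.066 on the log2 scale relative to CYP (interval -1.88 to -1.59, adjusted p = 6.0e-08). Against control the change in selenite + CYP was -0.16 ± 0.066 (interval -0.31 to -0.02), which did not pass (adjusted p = 0.0975). It passed with quantile normalization (log2 change -0.22, adjusted p = 0.0335).

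Junb (ENSMUSG00000052837), an AP-1 subunit that can restrain JUN, had 693.3, 691.8 and 696.6 scaled counts in selenite + CYP, 1280, 1209 and 1216 in CYP, and 615.1, 587.8 and 604.6 in control livers. The groups did not overlap in any comparison, with CYP highest and control lowest. Junb rose in CYP livers to 1235 ± 39.3, 2.05 times the control mean of 603 ± 13.8 (log2 change 1.03 ± 0.048, limma adjusted p = 4.3e-07). In selenite + CYP livers it was lower than in CYP by 0.83 on the log2 scale (log2 change -0.83 ± 0.048, interval -0.94 to -0.72, adjusted p = 1.3e-06). It was still higher than in control, by 0.20 ± 0.048 (interval 0.09 to 0.31, adjusted p = 0.0108).

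Jun and Jund were higher than control in both treated groups. Jun (ENSMUSG00000052684), the AP-1 subunit that JNK phosphorylates, had 593.8, 504.5 and 579.7 scaled counts in selenite + CYP, 487.8, 472.7 and 516.7 in CYP, and 308.6, 307.0 and 262.9 in control livers. Both treated groups lay wholly above control and overlapped each other. The log2 change was 0.75 ± 0.092 for CYP over control (interval 0.54 to 0.96, limma adjusted p = 3.7e-04) and 0.93 ± 0.092 for selenite + CYP over control (interval 0.72 to 1.14, adjusted p = 4.5e-05). Between selenite + CYP and CYP it was 0.18 ± 0.092 (interval -0.03 to 0.39), which did not pass (adjusted p = 0.206). With libraries scaled to equal totals it was 0.31 and passed (adjusted p = 0.0477). That scaling also moved the median of all genes in this comparison from 0.017 to 0.139.

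Jund (ENSMUSG00000071076), an AP-1 subunit present in unstimulated cells, had 1457, 1353 and 1417 scaled counts in selenite + CYP, 1501, 1497 and 1507 in CYP, and 948.0, 944.2 and 905.2 in control livers. The lowest treated library was above the highest control library, and the selenite + CYP libraries were all below the CYP ones. Jund rose by 0.69 ± 0.044 in CYP (interval 0.59 to 0.79, limma adjusted p = 4.2e-06) and by 0.59 ± 0.044 in selenite + CYP relative to control (interval 0.50 to 0.69, adjusted p = 5.9e-06). The change in selenite + CYP relative to CYP was -0.09 ± 0.044 (interval -0.19 to 0.01, adjusted p = 0.178). It turned to 0.03 when libraries were scaled to equal totals, which moved the median of all genes to 0.139.

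The FOS subunits, which pair with JUN proteins to form AP-1, had few reads. Fos (ENSMUSG00000021250) had 51.56, 12.91 and 38.33 scaled counts in selenite + CYP, 55.13, 67.39 and 47.14 in CYP, and 43.50, 44.29 and 17.14 in control livers. These came from 56, 14 and 40 reads in selenite + CYP, 53, 66 and 51 in CYP, and 43, 44 and 15 in control livers. The CYP libraries lay above the controls, and selenite + CYP overlapped both other groups. The coefficient of variation was 57.3% in selenite + CYP, 18% in CYP and 44.2% in control livers, where counting error alone would give 16.5%, 13.3% and 17.1%. The log2 change of 0.78 ± 0.52 for CYP over control had an interval of -0.38 to 1.94 and did not pass (limma adjusted p = 0.385). For selenite + CYP over CYP it was -0.89 ± 0.52 (interval -2.06 to 0.27, adjusted p = 0.268). A change in Fos as large as that of Egr1 lies within the interval of both comparisons. Fosb (ENSMUSG00000003545) had 0, 5 and 6 reads in selenite + CYP, 0, 10 and 3 in CYP, and 7, 6 and 3 in control livers, with adjusted p between 0.543 and 0.991. No change of Fosb was called, and its interval for CYP over control ran from -3.04 to 1.33.

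Myc (ENSMUSG00000022346), a growth and ribosome-biogenesis factor, went the other way from the JUN genes. It had 76.42, 85.78 and 102.5 scaled counts in selenite + CYP, 113.4, 65.35 and 58.23 in CYP, and 123.4, 219.4 and 188.6 in control livers. All 6 treated libraries were below the lowest control library, and the treated groups overlapped each other. Myc fell by 1.18 ± 0.29 in CYP (log2 change -1.18, interval -1.82 to -0.54, limma adjusted p = 0.0195) and by 0.97 ± 0.29 in selenite + CYP relative to control (log2 change -0.97, interval -1.61 to -0.33, adjusted p = 0.0298). For selenite + CYP over CYP the change was 0.21 ± 0.29 (interval -0.43 to 0.85, adjusted p = 0.672). Both falls missed the threshold without control replicate 2 (adjusted p = 0.0800 for CYP and 0.111 for selenite + CYP) or without control replicate 3 (0.0754 and 0.0983). The first also missed it without CYP replicate 2 (0.0705) or 3 (0.0735) or with only CYP and control in the fit (0.0823), and the second without selenite + CYP replicate 1 (0.10) or 2 (0.0822).

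Klf6 (ENSMUSG00000000078), a Krüppel-like factor that is induced in stellate cells of injured liver, was highest in selenite + CYP livers. It had 368.3, 365.3 and 376.6 scaled counts in selenite + CYP, 291.2, 294.1 and 319.8 in CYP, and 245.9, 194.3 and 262.9 in control livers. The 3 groups did not overlap one another. The 8 stellate cell markers summed to 7986 to 8346 scaled counts in selenite + CYP, 7496 to 7803 in CYP and 7041 to 7284 in control livers. In selenite + CYP over control 6 of the 8 were called higher, against 14.4% of all genes (median log2 change 0.55, against 0.027 over all genes). Of the 8, 2 were called higher in CYP over control, against 7.72% of all genes (median 0.17). In selenite + CYP over CYP 3 were higher and 1 lower, against 11.6% and 12.3% of all genes (median 0.23). Calls over control were not particular to stellate markers. In selenite + CYP 6 of 7 tested neutrophil, 5 of 8 macrophage and 10 of 10 pancreatic acinar markers were also higher. Hepatocyte markers had 2 of 8 higher and 6 lower, and 5 of 7 erythroid markers were lower. The part of any of these markers in the Klf6 values was not tested. The log2 change was 0.67 ± 0.11 for selenite + CYP over control (interval 0.41 to 0.92, limma adjusted p = 0.00156). For CYP over control it was 0.37 ± 0.11 (interval 0.12 to 0.63), which did not pass (adjusted p = 0.0522) but passed with limma-voom on the reads (0.0458) or without control replicate 3 (0.0302). For selenite + CYP over CYP it was 0.29 ± 0.11 (interval 0.04 to 0.55, adjusted p = 0.0945), and it passed with only selenite + CYP and CYP in the fit (0.0173) or without control replicate 2 (0.0223).

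Ier2 (ENSMUSG00000053560) and Ier3 (ENSMUSG00000003541) encode small early response proteins, a nuclear one and a regulator of cell death. Ier2 had 432.7, 460.3 and 514.6 scaled counts in selenite + CYP, 652.1, 622.8 and 550.9 in CYP, and 490.7, 473.1 and 564.6 in control livers. The selenite + CYP libraries were all below the CYP ones, and control overlapped both. Ier2 was lower in selenite + CYP than in CYP (log2 change -0.37 ± 0.099, interval -0.60 to -0.15, limma adjusted p = 0.0213). This call was lost with equal totals (adjusted p = 0.158), which moved the median of all genes to 0.139. The call was also lost without CYP replicate 1 (0.0780) or 2 (0.0672) or selenite + CYP replicate 1 (0.0771) or 2 (0.0665). For CYP over control the change was 0.26 ± 0.099 (adjusted p = 0.122), and for selenite + CYP over control it was -0.12 ± 0.099 (adjusted p = 0.430). Ier3 had 15.65, 21.22 and 26.83 scaled counts in selenite + CYP, 20.80, 14.29 and 24.03 in CYP, and 14.16, 20.13 and 14.86 in control livers, and all groups overlapped. Its adjusted p values lay between 0.496 and 0.884.

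**Figure D2:**
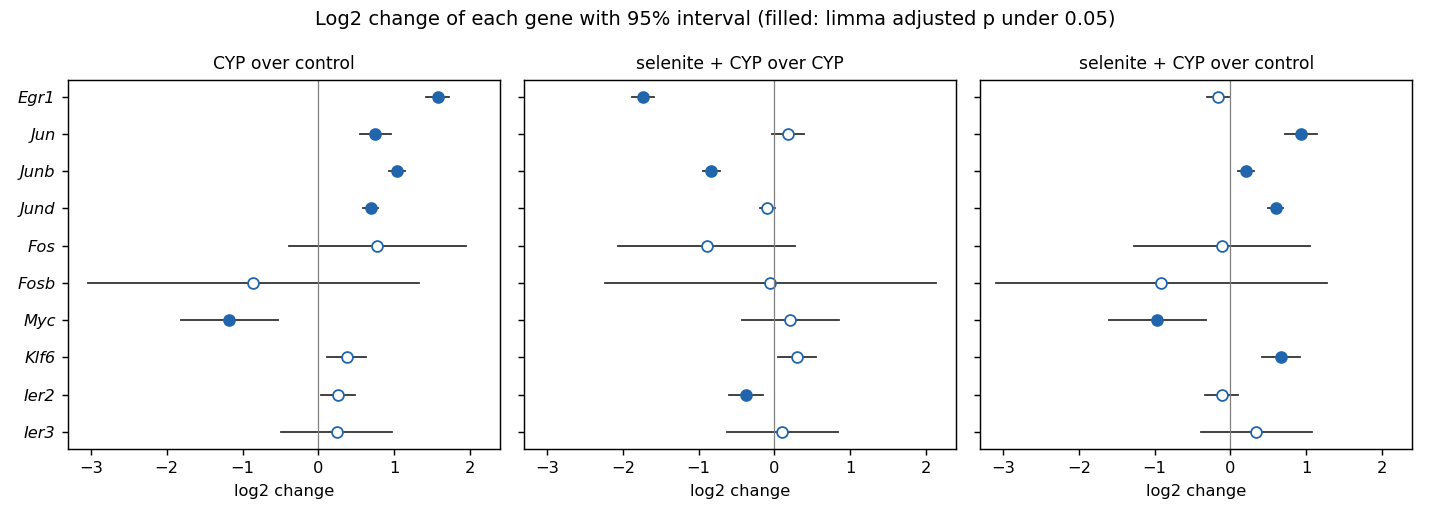
Log2 change (horizontal axis) of each of the 10 genes in the 3 comparisons, with the 95% interval of limma's model as a line. Filled points have an adjusted p under 0.05. Egr1 is at 1.57 for CYP over control, -1.73 for selenite + CYP over CYP and -0.16 for selenite + CYP over control, while Jun is at 0.75, 0.18 and 0.93.

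The 7 genes called at least once did not share a pattern. Egr1 was higher in every CYP library than in the other 6 libraries, and Junb was highest in CYP and intermediate in selenite + CYP livers. Jun and Jund were high in both treated groups, and Klf6 was highest in selenite + CYP livers. Myc was low in both treated groups. Ier2 was lower in selenite + CYP than in CYP livers, with the control mean between them.

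Levels between genes were compared as scaled counts per kilobase of exon, with exon lengths from GENCODE vM21. The length of a gene was that of the exons of all its annotated transcripts merged, 4484 bases for Egr1. This can exceed the length of the mRNA present, so the order of genes with near levels depends on that choice. In selenite + CYP livers Jund was highest at 845 ± 31.3 per kilobase (SD, n = 3), and Ier2 (308 ± 27.4) and Junb (302 ± 1.08) overlapped. Jun (175 ± 15.1), Klf6 (84.3 ± 1.34), Egr1 (67.6 ± 1.68) and Myc (32.5 ± 4.87) followed without overlap. Ier3 (18.8 ± 4.94) and Fos (14.6 ± 8.35) overlapped, and Fosb was at 0.55 ± 0.49 per kilobase. In CYP livers Jund stood at 900 ± 2.95 per kilobase, and Junb (537 ± 17.1) was above Ier2 (400 ± 34.2). Egr1 (225 ± 8.99) was above Jun (154 ± 7.0) there, and Klf6 (68.7 ± 3.59) above Myc (29.1 ± 11). Myc overlapped Fos (24.0 ± 4.34), which overlapped Ier3 (17.4 ± 4.39), and Fosb was at 0.69 ± 0.85 per kilobase. In control livers Jund was again highest at 559 ± 14.2 per kilobase, followed by Ier2 at 335 ± 31.9, Junb at 262 ± 5.98 and Jun at 91.8 ± 8.14, each above the next in every library. Jun stood above Egr1 (75.7 ± 3.72 per kilobase), and the libraries of Myc (65.2 ± 18) overlapped those of both Egr1 and Klf6 (53.4 ± 8.14). Fos (14.9 ± 6.57) and Ier3 (14.5 ± 2.89) overlapped, and Fosb was lowest at 0.88 ± 0.30.

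**Figure D3:**
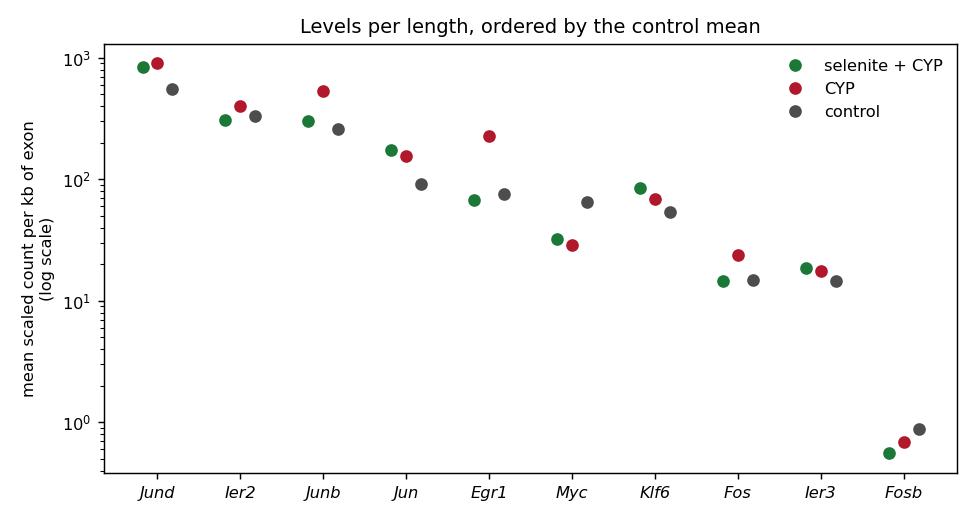
Mean scaled count per kilobase of exon (vertical axis, log scale) of the 10 genes in selenite + CYP, CYP and control livers, ordered by the control mean, with no error bars drawn. Jund is highest and Fosb lowest in all 3 groups, and Egr1 is at 67.6 in selenite + CYP, 225 in CYP and 75.7 in control livers.

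The other AP-1 subunits and their bZIP partners (12 genes, all tested) had 2 members called in CYP over control, both higher (1 without control replicate 2 or CYP replicate 2). They had 2 higher and 3 lower in selenite + CYP over CYP (3 in all without CYP replicate 1), and 4 higher and 2 lower in selenite + CYP over control. Their median log2 changes were -0.04, 0.27 and 0.25 in that order. Of the 12, 16.7%, 41.7% and 50% were called, against 16.3%, 23.9% and 28.9% of all genes. Fosl2, a FOS-related subunit, had 279 ± 47.0 scaled counts in selenite + CYP, 415 ± 39.3 in CYP and 180 ± 16.9 in control livers. It rose in CYP (log2 change 1.20 ± 0.14, limma adjusted p = 2.1e-04) and was lower in selenite + CYP than in CYP (-0.58, adjusted p = 0.0113). Atf3, a stress-induced partner of JUN, had 80.6 ± 9.17 scaled counts in selenite + CYP, 29.5 ± 6.35 in CYP and 12.1 ± 4.41 in control livers, in the order of Klf6 and not of Egr1. It was higher in selenite + CYP than in CYP (1.43 ± 0.29, adjusted p = 0.00551) and than in control (2.68 ± 0.29, adjusted p = 8.3e-05). Its rise in CYP over control (1.25 ± 0.29, adjusted p = 0.0160) was lost without control replicate 2 (0.0537) or 3 (0.0521) or CYP replicate 2 (0.0593). Mafg, a small MAF partner, fell in selenite + CYP relative to CYP (log2 change -0.56, adjusted p = 6.5e-05), and Mafk was higher there than in control (0.62, adjusted p = 0.00164).

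Of the EGR factors and NAB corepressors (4 tested), Nab2, an EGR1-induced corepressor of EGR1, had 555 ± 61.3 scaled counts in selenite + CYP, 515 ± 17.2 in CYP and 351 ± 22.9 in control livers. Unlike that of Egr1, the level of Nab2 was higher than control in both treated groups (log2 change 0.55, limma adjusted p = 0.0023, in CYP and 0.65, adjusted p = 4.4e-04, in selenite + CYP). Between selenite + CYP and CYP its change was 0.10 (adjusted p = 0.495). In that list 1 gene was called in CYP over control, 1 in selenite + CYP over CYP and 2 in selenite + CYP over control (1 without control replicate 1 or 3 or selenite + CYP replicate 1), each of them higher. These were 25%, 25% and 50% of the 4, against 16.3%, 23.9% and 28.9% of all genes. Egr2 was the one between selenite + CYP and CYP (12.4 ± 5.49 scaled counts in selenite + CYP and 0.92 ± 1.60 in CYP, adjusted p = 0.0179), a call that was lost without CYP replicate 1 (0.0622) or 2 (0.0619) or selenite + CYP replicate 1 (0.0670) or 2 (0.0512).

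The list of other immediate early genes (24 tested) had 8 members called higher and 2 lower in CYP over control, a count of 10 called that was 6 when the selenite + CYP libraries were left out of the fit. Between selenite + CYP and CYP 1 was higher and 11 were lower, and in selenite + CYP over control 8 were higher and 8 lower. The medians were 0.12, -0.29 and -0.12 on the log2 scale. Called were 41.7%, 50% and 66.7% of the 24, against 16.3%, 23.9% and 28.9% of all genes. Trib1, a scaffold for protein degradation, had 1369 ± 59.4 scaled counts in selenite + CYP, 2080 ± 26.1 in CYP and 1629 ± 65.9 in control livers. It rose in CYP over control (log2 change 0.35, limma adjusted p = 6.2e-04) and was lower in selenite + CYP than in CYP (-0.60, adjusted p = 1.0e-05). Zfp36, whose product speeds the decay of cytokine and early mRNAs, was lower in selenite + CYP than in CYP (-0.48, adjusted p = 2.5e-05) and than in control (-0.69, adjusted p = 1.5e-06). Btg2, an antiproliferative gene named here after its values were seen, had 410 ± 39.5 scaled counts in selenite + CYP, 750 ± 35.0 in CYP and 265 ± 14.3 in control livers. It was higher in CYP than in control (1.50 ± 0.086, adjusted p = 1.9e-06) and lower in selenite + CYP than in CYP (-0.87, adjusted p = 5.5e-05).

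Other Krüppel-like factors (13 tested) had 1 member higher and 2 lower in CYP over control. In selenite + CYP over CYP 1 was higher and 6 were lower, and 4 in all were called without selenite + CYP replicate 2. In selenite + CYP over control 1 was higher and 6 were lower. The medians were -0.00040, -0.24 and -0.50 on the log2 scale. Of the 13, 23.1%, 53.8% and 53.8% were called, against 16.3%, 23.9% and 28.9% of all genes. Klf15, a glucocorticoid-induced regulator of amino acid and glucose metabolism, had 2337 ± 82.6 scaled counts in selenite + CYP, 4431 ± 153 in CYP and 7514 ± 173 in control livers. It fell in CYP relative to control (log2 change -0.76, limma adjusted p = 7.3e-07) and was lower again in selenite + CYP than in CYP (-0.92, adjusted p = 1.2e-07), whereas Klf6 was highest in that group. Klf9 and Klf13 fell in selenite + CYP relative to CYP (log2 change -0.43, adjusted p = 4.3e-05, and -0.81, adjusted p = 6.0e-06), and Klf2 rose (0.52, adjusted p = 0.0186). That Klf2 call was lost without CYP replicate 2 (0.0608) or selenite + CYP replicate 1 (0.0619) or 2 (0.0553).

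Among the MYC paralogues and the MAX network, through which MYC binds DNA and is opposed (13 tested), 2 genes were higher and 1 lower in CYP over control. In selenite + CYP over CYP 2 were higher and 1 lower, with 1 called in all without selenite + CYP replicate 3, and in selenite + CYP over control 3 were higher and 2 lower. Medians were 0.09, 0.08 and 0.19. Called were 23.1%, 23.1% and 38.5% of the 13, against 16.3%, 23.9% and 28.9% of all genes. Max, the obligate partner, had 558 ± 19.7 scaled counts in selenite + CYP, 531 ± 69.6 in CYP and 476 ± 114 in control livers and was not called in any comparison (limma adjusted p between 0.262 and 0.783). Mnt, a MAX partner that represses MYC targets, rose in CYP (log2 change 0.71, adjusted p = 0.00122) and in selenite + CYP relative to control (0.81, adjusted p = 3.0e-04). Genes described as MYC targets of ribosome biogenesis and growth (24 tested) had 7 higher and 3 lower in CYP over control, 11 higher and 2 lower in selenite + CYP over CYP, and 13 higher and 1 lower in selenite + CYP over control. Their medians were 0.02, 0.24 and 0.31, where Myc itself had changes of -1.18, 0.21 and -0.97. Called were 41.7%, 54.2% and 58.3% of these 24, against the same shares of all genes. Mybbp1a, a nucleolar protein, had 2243 ± 47.4 scaled counts in selenite + CYP, 1368 ± 59.7 in CYP and 1294 ± 95.3 in control livers, and it was higher in selenite + CYP than in CYP (0.71, adjusted p = 1.6e-05). Npm1, a nucleolar chaperone, was also higher there (0.41, adjusted p = 2.7e-04), and Ldha, lactate dehydrogenase, was higher in CYP than in control (0.76, adjusted p = 9.1e-08).

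Transcripts of the signalling steps above the early genes were spread over both directions. Of 27 tested ligands, receptors and kinases, 2 were higher and 5 lower in CYP over control (3 called in all without CYP replicate 2). Between selenite + CYP and CYP 6 were higher and 5 lower, and in selenite + CYP over control 4 were higher and 6 lower. The medians were -0.07, 0.04 and 0.04. Of the 27, 25.9%, 40.7% and 37% were called, against 16.3%, 23.9% and 28.9% of all genes. Egfr, the epidermal growth factor receptor, fell in CYP relative to control (31893 ± 440 scaled counts in CYP and 38203 ± 303 in control, log2 change -0.26, limma adjusted p = 1.3e-05). Mapk3, a MAP kinase, had a change of -0.13 (adjusted p = 0.318) in CYP over control. The list of serum response factor and its cofactors (9 tested) also held the CREB family factors Creb1, Atf1 and Crem, which are not such cofactors. It had 1 gene called in CYP over control, Mkl1, which was higher. In CYP over control and in selenite + CYP over control 11.1% of the 9 were called, against 16.3% and 28.9% of all genes. In selenite + CYP over control 1 was called, Crem, which was lower (log2 change -0.39, adjusted p = 0.0233), a call lost without control replicate 2 (0.0783) or 3 (0.0750) or selenite + CYP replicate 3 (0.0529). The Mkl1 call (log2 change 0.26, adjusted p = 0.0435) was lost with each of the control libraries left out (0.0630 to 0.104) and without CYP replicate 1 (0.106) or 2 (0.133), and also with equal library totals (0.0864), limma-voom on the reads (0.0513) or the replicate block (0.0800). In selenite + CYP over CYP 0 of the 9 were called by limma and 0 by limma-voom, with 2 at an unadjusted p under 0.05, and 1 was called with any 1 of the selenite + CYP libraries left out. Srf itself had 388 ± 27.6 scaled counts in selenite + CYP, 334 ± 52.3 in CYP and 384 ± 9.46 in control livers, with adjusted p between 0.201 and 0.953.

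Feedback inhibitors of MAP kinase signalling (17 tested) had 1 higher and 1 lower in CYP over control, 4 called in selenite + CYP over CYP, all lower, and 3 higher and 4 lower in selenite + CYP over control. The medians were 0.02, -0.35 and -0.08. Called were 11.8%, 23.5% and 41.2% of the 17, against 16.3%, 23.9% and 28.9% of all genes. Dusp1, a MAP kinase phosphatase and itself an early gene, had 317 ± 30.8 scaled counts in selenite + CYP, 425 ± 6.91 in CYP and 429 ± 24.8 in control livers. It fell in selenite + CYP relative to CYP (log2 change -0.43, limma adjusted p = 0.00520), and its change in CYP over control was -0.01 (adjusted p = 0.951). Dusp6, the ERK phosphatase, was also lower in selenite + CYP than in CYP (-0.50, adjusted p = 2.6e-04), as was Errfi1, an inhibitor of EGFR (-0.45, adjusted p = 7.0e-08). Dusp8, a phosphatase of JNK and p38, rose in CYP (79.3 ± 20.1 and 15.2 ± 3.64 scaled counts in CYP and control, log2 change 2.30 ± 0.27, adjusted p = 2.7e-04).

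Genes described as targets of AP-1 or EGR1 (19 tested) had 7 higher and 1 lower in CYP over control, 6 higher and 1 lower in selenite + CYP over CYP, and 10 higher and 2 lower in selenite + CYP over control. The medians were 0.31, 0.27 and 0.90. Of the 19, 42.1%, 36.8% and 63.2% were called, against 16.3%, 23.9% and 28.9% of all genes. Spp1, osteopontin, had 1723 ± 54.6 scaled counts in selenite + CYP, 6476 ± 163 in CYP and 2211 ± 81.8 in control livers. It was higher in CYP than in control (log2 change 1.55, limma adjusted p = 8.6e-09) and lower in selenite + CYP than in CYP (-1.91, adjusted p = 1.5e-09). Spp1 is also one of the 7 cholangiocyte markers, and it was the one of the 7 called in CYP over control and in selenite + CYP over CYP. Vegfa was the 1 target called lower in CYP over control (log2 change -0.31, limma adjusted p = 0.00128). Spp1 and Vegfa were both called lower in selenite + CYP than in control, and the Vegfa call was lost with equal library totals (0.43). Icam1, an adhesion molecule, and Hmox1, heme oxygenase, were higher than control in both treated groups. Icam1 had changes of 0.91 (adjusted p = 4.6e-06) in CYP and 1.19 (adjusted p = 3.4e-07) in selenite + CYP, and Hmox1 of 0.89 (2.0e-05) and 0.90 (9.3e-06).

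**Figure D4:**
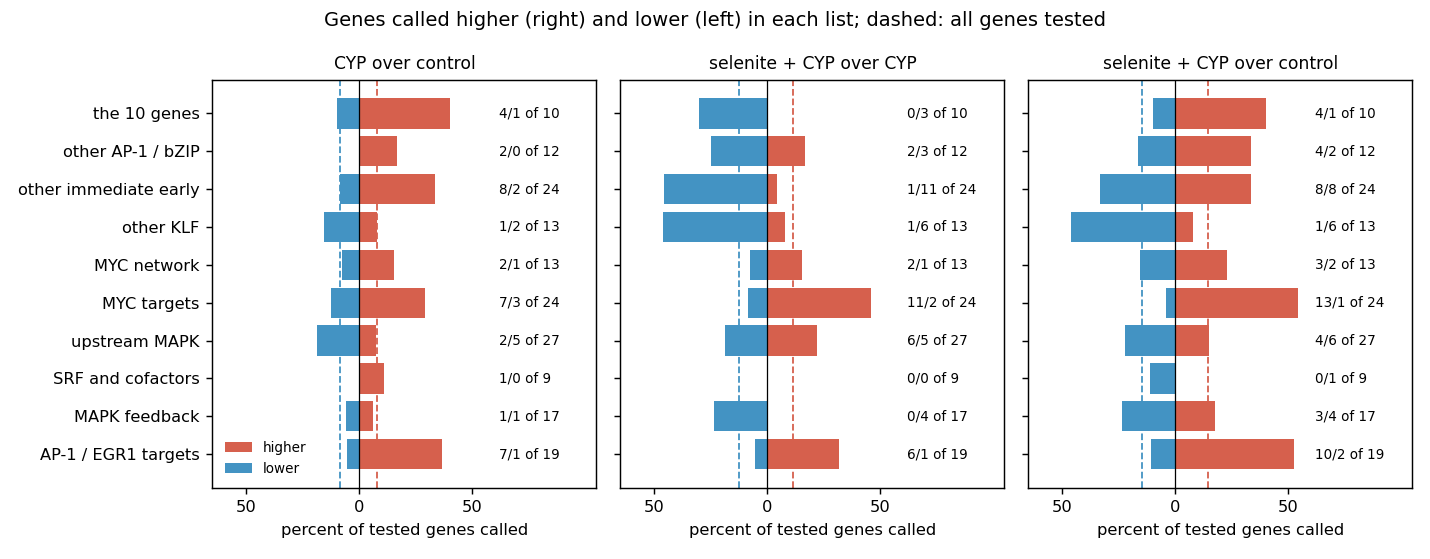
Percent of tested genes called higher (right of 0) and lower (left of 0) in the 10 genes and 9 related lists, for CYP over control, selenite + CYP over CYP and selenite + CYP over control. Dashed lines mark the percent of all genes called in each direction, and the figures at the right give higher/lower of tested. Other immediate early genes have 11 of 24 lower in selenite + CYP over CYP, and AP-1 / EGR1 targets have 10 of 19 higher in selenite + CYP over control.

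The genes whose pattern over the 9 libraries was most like that of each called gene were found among 10513 genes with a mean of at least 100 scaled counts, by Pearson's r of log2(scaled count + 1). Libraries of a group share its treatment, so the 9 points are not independent of it, and r is given as a description. Those most like Egr1 included Susd6 and Wdr45b (r = 0.996 each). Junb was most like Tifa (0.998), Serpinf2 (0.996) and Lbp (0.996), and Jund like Gm5586 (0.997), Fkbp5 (0.996) and Il1r1 (0.995). For Jun these were Ireb2 (0.985), Isyna1 (0.984) and Slc39a1 (0.983), and for Klf6 Hes1 (0.993), Mafk (0.988) and Ly6d (0.978). For Ier2 they were Zfp768 (0.965), Aldoc (0.952) and Gabarap (0.951), and for Myc Ntn4 (0.942), Sec63 (0.935) and Klhl13 (0.927).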

How the data were processed

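RNA-seq of 9 liver libraries was analysed from 1 table of log2 values that the authors deposited. HISAT, Cufflinks and the build mm9 are named, with no version or role, per the submitters' processing notes. No source used here names the counting tool, the annotation or a strand setting, so reads of overlapping genes may be shared. The design text names an Illumina HiSeq, the library protocol a BGISEQ500. The deposited log2 values equal log2(reads / library factor + 1). Undoing this gave whole reads within 0.02 for 100% of values, and the factors match median-of-ratios factors, a scaling that assumes most genes do not change.

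A limma 3.58.1 model (R 4.3.3) with 3 group means and an intensity trend was fitted to log2(scaled count + 1) of the 20145 genes whose mean scaled count was 1 or more. P-values were two-sided and adjusted by Benjamini-Hochberg over these genes. Log2 changes understate those of low genes. Alternatives changed the pseudocount, filter, scaling, model (limma-voom on the recovered reads) and samples.

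The 10 genes and the related lists were chosen with earlier results of these data known. Named besides the 10 are genes among 11 fixed by name, the most abundant called genes of each list (at most 3 per comparison) and the 3 genes most like each called one, but some that this rule names are not reported here. In the lists, Egr4, Klf14, Klf17, Areg, Map2k7, Spry3 and Il6 had no single matching entry, and Npas4, Klf8 and Ly6g were under the filter. Gene coordinates are not given, since the reference is GRCm38 and not mm9.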

Additional observations from a re-analysis of the deposited data

How the results depend on the processing

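Each change was recomputed with other pseudocounts, filters, scalings, models and sets of libraries, and 2 alternatives (a fit without control replicate 2 in all comparisons, and equal totals without AY036118) were chosen after seeing the data. Over the 517 recomputed changes of the 10 genes, 491 stayed on their side of the threshold, the called ones in the same direction. A further 16 missed it, 10 newly passed it and 0 called ones reversed; the 16 were changes of Myc and Ier2, and the cause was not tested. The 10 newly passing were changes of Klf6, Jun and Egr1. Members called ranged from 4 to 6 for CYP over control, 3 to 4 for selenite + CYP over CYP and 4 to 6 for selenite + CYP over control, and from 4 to 5, 2 to 4 and 4 to 5 with 1 library left out. Genes called ranged from 2563 to 3346, 4446 to 5050 and 5429 to 5983, and from 2668 to 2833, 3989 to 4717 and 4994 to 5163 with 1 library left out.

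Equal totals moved the median of all genes to 0.139 in selenite + CYP over CYP and 0.156 in selenite + CYP over control. There 3238 genes were higher and 1335 lower, against 2337 and 2468, and 3979 higher and 1764 lower, against 2908 and 2915. Without AY036118 these were 3533 and 1517, and 3948 and 2035. Among uncalled changes, those of Jund and Fosb in selenite + CYP over CYP and of Fos and Ier2 in selenite + CYP over control turned slightly positive with equal totals, each by less than that median. Outside the 10 genes, Egfr in selenite + CYP over CYP (log2 change -0.12) was 0.0101 with equal totals, 0.0084 without AY036118 and 0.2566 with quantile normalization, where in selenite + CYP over control it was 0.0258. Ldha in selenite + CYP over CYP was 0.3012 with quantile normalization; the causes were not tested. For CYP over control, called kinases and receptors were 4 with equal totals, against 7, the MAX network 5 with a filter of 10, against 3, and the AP-1 partners 1 with only CYP and control in the fit, against 2. Called genes of the list of SRF, its cofactors and CREB family factors moved between 0 and 2. EGR and NAB genes fell by 1 in both selenite comparisons with a pseudocount of 0.1 or a filter of 10.

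Correlations of deviations between same-numbered libraries were small: 0.004 to 0.019 for CYP with control, -0.037 to 0.072 for selenite + CYP with CYP and 0.026 to 0.051 for selenite + CYP with control. Between differently numbered libraries they were -0.051 to 0.037, -0.074 to 0.074 and -0.035 to 0.008 in that order. For selenite + CYP with control every same-numbered value was thus above every other one. Whether replicate numbers pair the samples was not tested. With the replicate number as a block, 2956, 4481 and 5506 genes and 5, 3 and 4 of the 10 were called in the same order. The Myc change in selenite + CYP over control had an adjusted p of 0.0617 in that block fit. Depth limits Fosb and Ier3, which had few reads: Ier3 varied within groups (coefficients of variation 19.9% to 26.3%) about as much as counting error gives (21% to 25.3%). Fos had coefficients above counting error in each group, but in CYP livers the gap was small (18% against 13.3%), and the excess was not tested. Some SDs were under counting error, as for Junb in selenite + CYP (0.359% against 3.67%) and Jund in CYP livers (0.327% against 2.57%). With 3 libraries a group, such small SDs do not show that precision.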
